A study of Homo sapiens with 2 samples.

Results

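Transcripts of the enzymes that write, erase and read histone marks were compared between HepG2 cells under fluid shear stress (FSS) and in static culture. HepG2 is a human cell line established from a liver cancer, and FSS is the frictional force that a laminar flow puts on the cell surface, applied here in a parallel plate chamber for 8 h. Members were taken by symbol from the deposited transcript table, as every gene named KDM, KMT, KAT, SETD, HDAC, SIRT or CBX with a number, together with EZH1, EZH2, EED, SUZ12, BMI1, RNF2, DOT1L, EP300 and CREBBP. This gave 75 genes with 250 transcripts, among 11589 gene symbols with 34714 transcripts. The FSS group and the static group each had 1 library, mixed from 3 replicates of cells at passage 10 to 15, and both groups came from the same line in the same serum-containing medium. With 1 library per group no difference has a replicate check and no test was possible, so every value below describes these libraries.

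Histones carry small chemical groups on their tails that mark genes as active, silent or poised. Methyltransferases (KMT and SETD proteins, EZH1, EZH2 and DOT1L) and acetyltransferases (KAT proteins, EP300 and CREBBP) add these groups, while demethylases (KDM), zinc-dependent deacetylases (HDAC) and the NAD-dependent sirtuins (SIRT) remove them. CBX proteins read methylated histone H3 either in Polycomb repressive complex PRC1 or, as the HP1 proteins, in compact heterochromatin, and PRC2 writes the methyl mark at lysine 27 that PRC1 reads.

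Levels are given in FPKM, read fragments scaled by transcript length and by the total mapped in the library, summed over the transcripts of a gene. The log2 ratio was that of FPKM + 1 in FSS over static, and a gene counts as higher or lower from 1.5-fold on it, a scale that compresses differences between low values. Where a pair of FPKM values is given, the static library comes first. All 75 members reached 0.5 FPKM in at least 1 library, as 11221 genes of the table did. The median log2 ratio of these 11221 genes was -0.25, so values are also given after centring, in which the median of those reaching 5 FPKM in a library, -0.23, was subtracted. Among markers of the labelled cell type, 5 of 21 hepatocyte genes were analysed here, summing to 9.76 FPKM in static and 9.50 FPKM in FSS cells, and FOXA1 was the 1 that reached 5 FPKM. The other 16 were not analysed here. AMBP and ASGR1 had a listed value of 0 in static culture, whereas the epithelial keratins KRT8 and KRT18 were abundant in both libraries, at 202 FPKM or more. Fibroblast markers (4 of 5 analysed) summed to 41.7 FPKM in static and 13.1 FPKM in FSS cells, with DCN listed at 0 in static cells. Leukocyte markers (2 of 3) summed to 1.70 and 6.06 FPKM and the 1 endothelial marker analysed, of 4 listed, was at 0.818 and 0.634 FPKM in the static and FSS libraries. The part of these differences in the results was not tested. In such bulk RNA fewer cells of a kind and less RNA per cell cannot be told apart.

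As a group the chromatin enzymes were close to the table as a whole. Of 75 members 6 were at least 1.5-fold higher in FSS (8.00%), where 10.5% of all genes were, and 24 were at least 1.5-fold lower (32%), where 29.5% of all genes were. Their median log2 ratio was -0.34. After centring 9 members were higher and 14 lower, against backgrounds of 17.8% and 17.9%, and the median was -0.11. The sign turned from negative to positive on centring for KDM5C, KDM4C, SETD5, KMT5B, EED, SUZ12 and CBX3. The 6 higher members were the sirtuin SIRT6, the demethylases KDM6B, KDM2A and KDM5A, and the methyltransferases SETD2 and EZH2, and all 6 stayed higher after centring. The demethylase KDM1A, which was the most abundant member in static cells, and the readers CBX5, CBX6, CBX7, CBX2 and CBX8 were among the 14 that stayed lower. The members just past the threshold were EZH2, at a log2 ratio of 0.64, and CBX1, at -0.61, and those just inside it were RNF2, at 0.56, and SETD1A, at -0.56.

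**Figure D1:**
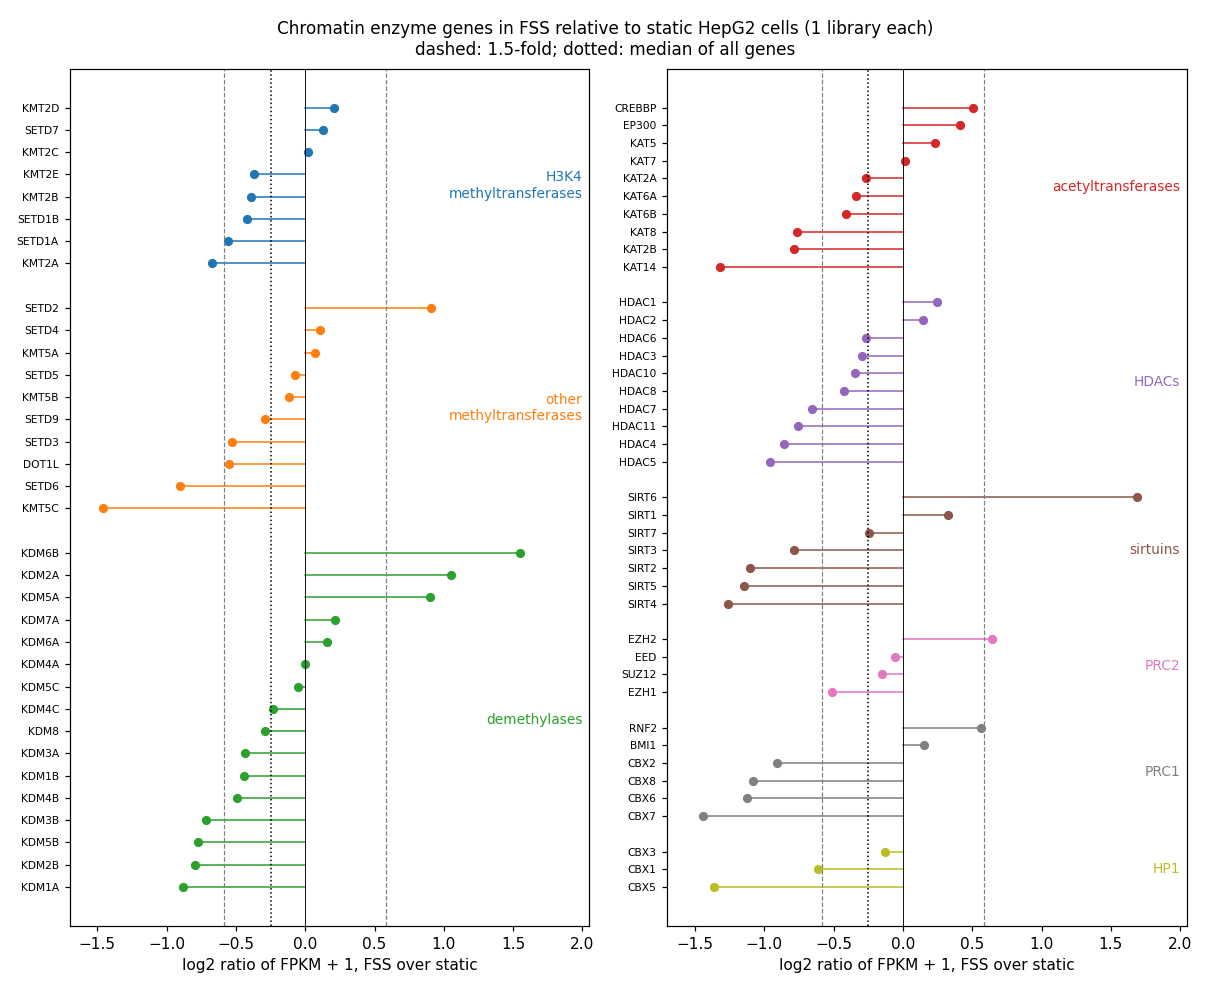
Log2 ratio of FPKM + 1, FSS over static (x axis), for the chromatin enzyme genes, sorted by class, with 1 point per gene and no error since each group had 1 library. Dashed lines mark 1.5-fold and the dotted line marks -0.25, the median of all genes. SIRT6 (1.69) and KDM6B (1.55) lie farthest to the right and KMT5C (-1.46) and CBX7 (-1.44) farthest to the left.

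The demethylases contained both the most abundant member in static cells and 3 of the 6 higher ones, and differed in direction within subfamilies. KDM6B (ENSG00000132510), which removes the repressive methyl mark from lysine 27 of histone H3, was at 7.32 FPKM in static culture and 23.4 FPKM under FSS, a log2 ratio of 1.55 (1.78 after centring). Its paralog KDM6A, which acts on the same mark, was at 9.56 and 10.8 FPKM. Thus KDM6A held the larger share of the pair in static cells, while KDM6B went from 43.4% of their summed FPKM in static cells to 68.4% in FSS cells. KDM2A, which acts on lysine 36 and binds CpG islands, was at 10.3 and 22.5 FPKM (log2 ratio 1.05), whereas its paralog KDM2B was at 5.36 and 2.66 FPKM (-0.80, or -0.56 after centring, inside 1.5-fold). KDM5A, an eraser of the active mark at lysine 4, was at 9.27 and 18.1 FPKM (0.90). KDM5B, of the same specificity, was at 3.02 and 1.35 FPKM (-0.77, or -0.54 after centring), and KDM5C, the most abundant of these 3 paralogs, at 40.2 and 38.8 FPKM (-0.05). The order among the 3 was therefore KDM5C, KDM5A and KDM5B in each library, with KDM5A going from 17.7% to 31.1% of their sum.

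KDM1A (LSD1), which removes methyl groups from lysine 4 within corepressor complexes, was at 101 FPKM in static culture and 54.1 FPKM under FSS, a log2 ratio of -0.88 (-0.65 after centring). It made up 41.6% of the FPKM of the 16 demethylases in static cells and 25.2% in FSS cells. KDM3B, a lysine 9 demethylase, was at 9.60 and 5.44 FPKM (-0.72, or -0.48 after centring). The other demethylases lay within 1.5-fold. KDM1B, KDM3A, KDM4A, KDM4B, KDM4C, KDM7A and KDM8 had log2 ratios between -0.49 (KDM4B) and 0.22 (KDM7A), and KDM8 was under 1 FPKM in both libraries. In all, 3 of 16 demethylases were higher and 4 lower, or 3 and 1 after centring, with a median of -0.26 (-0.03 after centring). Among all genes 10.5% were higher and 29.5% lower, or 17.8% and 17.9% after centring.

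The sirtuins, which use NAD as a cosubstrate, were the class in which the members diverged most. SIRT6 (ENSG00000077463), a nuclear deacetylase of histone H3 with roles in genome stability and metabolism, was at 4.36 FPKM in static culture and 16.3 FPKM under FSS, a log2 ratio of 1.69 (1.92 after centring), the largest of any member. SIRT1, also nuclear, was at 7.89 and 10.1 FPKM (0.33) and SIRT7, found in nucleoli, at 2.93 and 2.32 FPKM (-0.24). By contrast SIRT2, mainly a cytoplasmic deacetylase, was at 10.7 and 4.43 FPKM (-1.11). The 3 mitochondrial sirtuins were all lower as deposited. SIRT3 was at 3.55 and 1.64 FPKM (-0.78, or -0.55 after centring, inside 1.5-fold), SIRT5 at 3.20 and 0.894 FPKM (-1.15), and SIRT4 at 1.39 FPKM in static cells and listed at 0 in FSS cells. These 3 summed to 8.14 FPKM in static and 2.53 FPKM in FSS cells. All 3 were low in both libraries and did not reach 5 FPKM in either. With 5 in place of 1 added to FPKM, all 3 were inside 1.5-fold. Genes with a mean under 5 FPKM were lower in 34.3% of cases across the table. In the class 4 of 7 sirtuins were lower and 1 higher, or 3 and 1 after centring. The shares of all genes were 29.5% and 10.5%, or 17.9% and 17.8% after centring. The sum of all 7 sirtuins was 34.0 and 35.8 FPKM, while SIRT6 went from 12.8% to 45.6% of it and SIRT2 from 31.4% to 12.4%.

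The promoters of KDM6B and SIRT6, the members with the largest log2 ratios, are printed with that of CBX7, near the other end, because a short motif of stress-response factors was found in each. They are RefSeq windows of 300 bases on GRCh38.p14, from 250 bases before to 50 bases after a start, and 66 of 75 members matched that table, with 97 windows. Capitals mark a heat shock motif (GAA, any 2 bases and TTC, with any base on each side) in KDM6B (chr17:7839667-7839966, plus strand, beginning at position -65 from the start). In the other 2 windows they mark TGACNNNGC, the core of the antioxidant response element, read on either strand. These are SIRT6 (chr19:4182514-4182813, minus strand, position -127) and CBX7 (chr22:39152631-39152930, minus strand, position -175).
KDM6B: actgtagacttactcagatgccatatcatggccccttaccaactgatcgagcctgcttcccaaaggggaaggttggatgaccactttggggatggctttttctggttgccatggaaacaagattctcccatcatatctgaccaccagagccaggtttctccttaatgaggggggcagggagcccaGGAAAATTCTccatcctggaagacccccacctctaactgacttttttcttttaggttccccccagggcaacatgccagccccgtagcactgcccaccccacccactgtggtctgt
SIRT6: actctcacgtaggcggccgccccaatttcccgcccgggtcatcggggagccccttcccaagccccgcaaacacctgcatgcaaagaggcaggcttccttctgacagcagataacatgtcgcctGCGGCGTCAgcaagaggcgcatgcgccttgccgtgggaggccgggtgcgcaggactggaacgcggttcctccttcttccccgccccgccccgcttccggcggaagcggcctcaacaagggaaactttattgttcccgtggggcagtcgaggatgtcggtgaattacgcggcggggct
CBX7: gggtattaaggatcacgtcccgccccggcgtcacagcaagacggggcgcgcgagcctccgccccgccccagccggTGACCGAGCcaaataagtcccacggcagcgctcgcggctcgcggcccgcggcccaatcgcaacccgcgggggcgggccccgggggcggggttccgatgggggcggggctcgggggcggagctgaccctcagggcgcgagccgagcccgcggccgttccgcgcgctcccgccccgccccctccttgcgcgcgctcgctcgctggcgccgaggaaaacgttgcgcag
The antioxidant core thus stood in the window of a member that was higher and of one that was lower. KDM6B and SIRT6 each have another start in the table, and its window holds 0 such matches. On both strands the heat shock motif was in 4 of 97 member windows (4.12%) against 6.71% of 35116 windows in the table. The 4 were those of KDM6B, KAT14, SIRT4 and SETD1A. The antioxidant core was in 10 (10.3%) against 13.3%. TGANTCA, the AP-1 site, was in 3 (3.09%) against 7.71%, the E-box CACGTG in 12 (12.4%) against 7.26%, ACGTG, the HIF core, which every E-box match also contains, in 25 (25.8%) against 21.4%, and the CRE TGACGTCA in 1 (1.03%) against 1.85%. A match describes letters, not a bound site. Members without an entry in the promoter table included CBX2, CBX8, DOT1L, HDAC5, KAT6A, KAT8, SETD1B and SIRT7.

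Polycomb genes were followed next, since KDM6B removes the mark that PRC2 writes. EZH2, the main methyltransferase of PRC2 in dividing cells, was at 20.4 FPKM in static culture and 32.4 FPKM under FSS, a log2 ratio of 0.64 (0.88 after centring), while its paralog EZH1 was at 10.1 and 6.75 FPKM (-0.52, or -0.28 after centring). EZH2 went from 66.9% to 82.8% of the pair. The partners that PRC2 needs for activity lay nearer to equal levels, with SUZ12 at 26.0 and 23.4 FPKM and EED at 11.6 and 11.1 FPKM, both negative as deposited (-0.15 and -0.06) and positive after centring (0.08 and 0.17). Thus both EZH2, a writer of the lysine 27 mark, and KDM6B, an eraser of it, were higher in FSS.

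Within PRC1 the catalytic core and several readers differed. RNF2, the ubiquitin ligase, was at 6.43 and 9.97 FPKM (0.56, or 0.79 after centring, past 1.5-fold), and its partner BMI1 at 12.6 and 14.1 FPKM (0.15). The CBX proteins of PRC1 bind methylated lysine 27 and define variants of the complex. CBX2, CBX6, CBX7 and CBX8 were lower both as deposited and after centring, beside 29.5% and 17.9% of all genes. CBX7 and CBX8 did not reach 5 FPKM in either library. With 5 in place of 1 added to FPKM, CBX7 (-0.51) and CBX8 (-0.48) were inside 1.5-fold. CBX2 was at 16.8 and 8.48 FPKM (-0.91), CBX6 at 10.7 and 4.35 FPKM (-1.12), CBX8 at 3.73 and 1.24 FPKM (-1.08) and CBX7 at 2.57 and 0.314 FPKM (-1.44). After correction for GC content, which also centres the values, CBX2 (-0.49, against -0.68 after centring alone) was inside 1.5-fold. CBX2 was the most abundant of these 4 in each library and CBX7 the least.

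Of the 3 HP1 readers of methylated lysine 9, CBX5 and CBX1 were lower as deposited and CBX3 was within 1.5-fold. CBX5 (HP1 alpha) was at 23.3 FPKM in static culture and 8.45 FPKM under FSS, a log2 ratio of -1.36 (-1.13 after centring). CBX1 (HP1 beta) was at 63.4 and 41.2 FPKM (-0.61, or -0.38 after centring, inside 1.5-fold), and CBX3 (HP1 gamma) at 82.3 and 75.2 FPKM (-0.13, which turned to 0.10 after centring). CBX3 was the most abundant in each library and went from 48.7% to 60.2% of the 3, while CBX5 went from 13.8% to 6.77%. CBX3 and CBX1 have 9 and 5 pseudogene copies named in GENCODE 29, so reads may be shared with copies and their levels are uncertain.

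**Figure D2:**
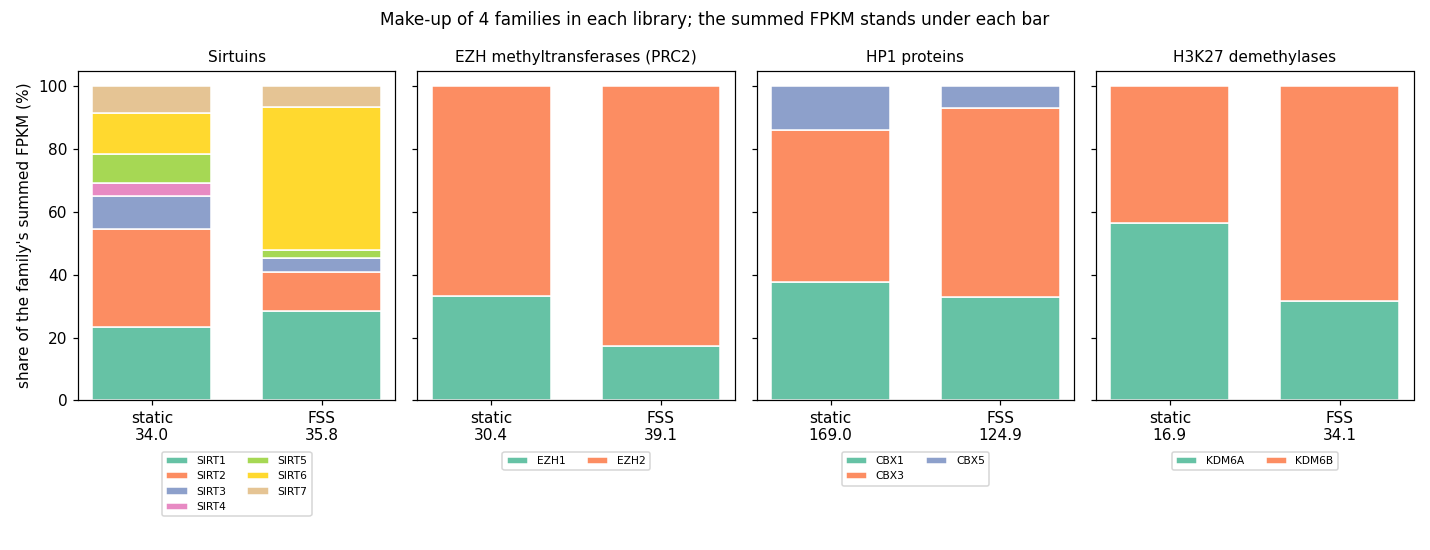
Share of each gene in the summed FPKM of its family (y axis, percent) in the static and the FSS library, with the summed FPKM under each bar, for sirtuins, EZH1 and EZH2, the HP1 proteins and the H3K27 demethylases. SIRT6 went from 12.8% to 45.6%, EZH2 from 66.9% to 82.8%, CBX3 from 48.7% to 60.2% and KDM6B from 43.4% to 68.4%.

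Methyltransferases of lysine 4, which mark promoters and enhancers, were within 1.5-fold except for KMT2A. KMT2A (MLL1) was at 7.68 and 4.43 FPKM in the static and FSS libraries (-0.68, or -0.44 after centring, inside 1.5-fold). The most abundant were SETD7, which also methylates other proteins, at 17.1 and 18.8 FPKM, KMT2E, for which methyltransferase activity is doubtful, at 16.2 and 12.3 FPKM, KMT2D, an enhancer enzyme, at 12.1 and 14.1 FPKM, and SETD1A at 13.5 and 8.87 FPKM. KMT2B, KMT2C, KMT2D and SETD1B had log2 ratios between -0.42 (SETD1B) and 0.21 (KMT2D). The class had a median of -0.38 (-0.15 after centring), with 1 of 8 lower and 0 higher, or 0 either way after centring. Of all genes 29.5% were lower and 10.5% higher, or 17.9% and 17.8% after centring.

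Among methyltransferases of other residues SETD2 was higher and KMT5C and SETD6 were lower. This was 1 higher and 2 lower of 10, both as deposited and after centring. The shares of all genes were 10.5% and 29.5%, or 17.8% and 17.9% after centring. With 5 in place of 1 added to FPKM, SETD2 (0.55) and SETD6 (-0.49) were inside 1.5-fold. SETD2, the enzyme that trimethylates lysine 36 along transcribed genes, was at 3.57 and 7.58 FPKM (0.91, or 1.14 after centring). Its level and that of KDM2A, an eraser at the same residue, were thus both higher in FSS as gene sums. For KDM2A this rested mainly on KDM2A-212, with a coding length of 2169 bases. The longer KDM2A-210 (3486 bases) had a log2 ratio of 0.55, inside 1.5-fold. Whether the shorter form keeps the eraser activity was not examined. KMT5C, which trimethylates lysine 20 of histone H4 in heterochromatin, measured 5.01 FPKM in static and 1.18 FPKM in FSS cells, and its log2 ratio of -1.46 (-1.23 after centring) was the lowest of all members. KMT5A, which places the first methyl group on that residue, was at 13.97 and 14.7 FPKM, and KMT5B, which like KMT5C adds further ones, at 8.95 and 8.19 FPKM (-0.11, or 0.12 after centring). SETD6, which methylates proteins other than histones as well, was at 5.50 and 2.48 FPKM (-0.90). SETD3, now known as a methyltransferase of actin, was the most abundant of these in static cells, at 22.5 and 15.3 FPKM (-0.53), and SETD5 in FSS cells, at 18.3 and 17.3 FPKM. DOT1L, SETD4 and SETD9 had log2 ratios of -0.55, 0.11 and -0.29.

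No acetyltransferase was past 1.5-fold upward as deposited, and the closely related coactivators EP300 and CREBBP were past it after centring. EP300 was at 12.2 and 16.5 FPKM (0.41, or 0.65 after centring) and CREBBP at 7.61 and 11.2 FPKM (0.50, or 0.73 after centring). KAT5 (TIP60), the most abundant, was at 22.8 and 26.96 FPKM (0.23), and KAT2A (GCN5) at 16.6 and 13.6 FPKM (-0.27). KAT14, KAT2B and KAT8 were lower, 30% of the 10 in this class. Among all genes 29.5% were lower and 10.5% higher. After centring 2 of the 10 acetyltransferases were higher and 1 lower, beside 17.8% and 17.9% of all genes. KAT14, a subunit of the ATAC complex, was at 3.74 and 0.902 FPKM (-1.32, or -1.09 after centring), KAT2B (PCAF), the paralog of KAT2A, at 3.66 and 1.71 FPKM (-0.78), and KAT8 (MOF) at 6.12 and 3.19 FPKM (-0.77), the last pair being inside 1.5-fold after centring at -0.55 and -0.53. KAT6A, KAT6B and KAT7 had log2 ratios of -0.34, -0.41 and 0.02.

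Of the 10 deacetylases 0 were higher and 4 were lower, or 0 and 2 after centring. The shares of all genes were 10.5% and 29.5%, or 17.8% and 17.9% after centring. The class I enzymes, of which HDAC1, HDAC2 and HDAC3 are catalytic subunits of nuclear corepressor complexes, were within 1.5-fold. HDAC1 was at 26.8 and 31.9 FPKM (0.25), HDAC8 at 16.5 and 12.03 FPKM (-0.43), HDAC2 at 9.56 and 10.7 FPKM (0.14) and HDAC3 at 6.74 and 5.29 FPKM (-0.30). Their sum was 59.6 FPKM in static and 59.9 FPKM in FSS cells. The 3 class IIa enzymes, which move between nucleus and cytoplasm in response to signals, were all lower as deposited. HDAC4 was at 9.76 and 4.92 FPKM (-0.86), HDAC5 at 4.74 and 1.95 FPKM (-0.96) and HDAC7 at 11.9 and 7.18 FPKM (-0.66, or -0.43 after centring, inside 1.5-fold). After correction for GC content, which also centres the values, HDAC4 (-0.55) and HDAC7 (-0.29) were inside 1.5-fold, and HDAC5 (-0.61) was not. Centring alone gave -0.63 for HDAC4 and -0.73 for HDAC5. With 5 in place of 1 added to FPKM, HDAC4 (-0.57), HDAC5 (-0.49) and HDAC7 (-0.47) were inside 1.5-fold. HDAC5 did not reach 5 FPKM in either library. The 3 enzymes summed to 26.4 FPKM in static and 14.1 FPKM in FSS cells. HDAC6, the tubulin deacetylase, and HDAC10, of class IIb, had log2 ratios of -0.27 and -0.34, and HDAC11, of class IV, was at 1.92 and 0.726 FPKM (-0.76, or -0.53 after centring).

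**Figure D3:**
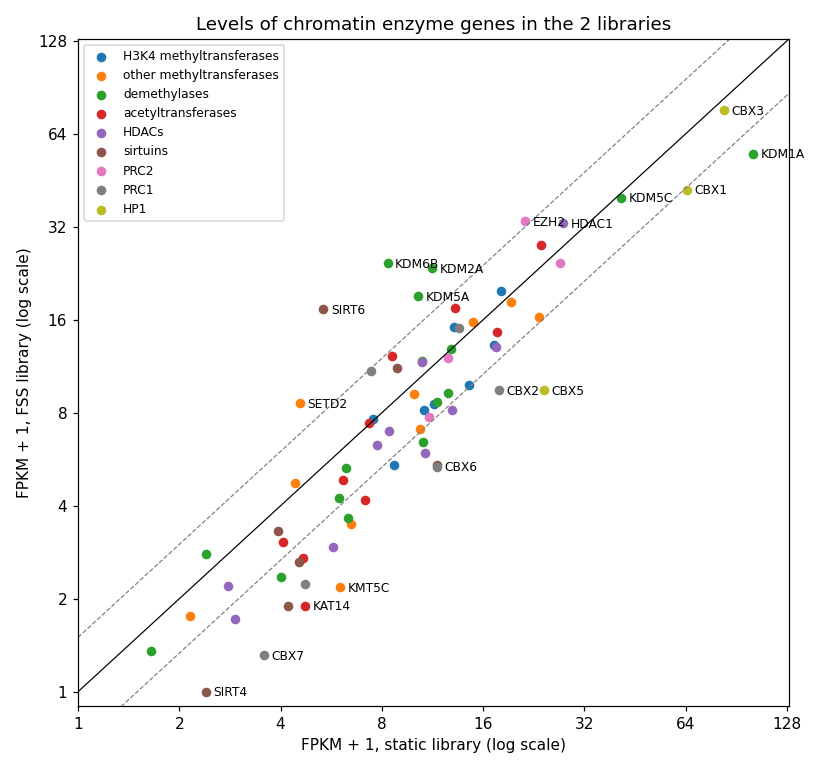
FPKM + 1 of the members in the static (x axis) and FSS library (y axis), both on log scales, coloured by class, with the diagonal for equal levels and dashed lines for 1.5-fold. KDM1A (101 and 54.1 FPKM), CBX3 (82.3 and 75.2 FPKM) and CBX1 (63.4 and 41.2 FPKM) are the most abundant, and the points to the lower left lie mostly under the diagonal.

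Low expression and GC content moved with the direction among the members. Of 24 members with a mean under 5 FPKM, 14 were lower and 0 higher, while among all 3939 genes at that level 34.3% were lower and 9.09% higher. Of 51 members at or above it, 10 were lower and 6 higher, and among all 7282 such genes 26.9% were lower and 11.3% higher. Across the 75 members the log2 ratio had a Spearman rho of 0.44 with mean log2(FPKM + 1) and of -0.27 with the GC content of the longest transcript, and across all genes 0.13 and -0.16 (genes share their libraries and are not independent). The 25 members of highest GC content, from 56.5% to 66.9%, included 11 lower and 2 higher ones, KDM6B and SIRT6, with a median of -0.55. Of all 2615 genes in that range 38.9% were lower and 9.25% higher, and their median was -0.41. The part of GC content in these differences was not tested.

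Transcripts of a gene were then compared, since 63 members had more than 1 listed. The transcript with the highest FPKM was a different one in the 2 libraries for 12 of these. The share among all genes was not computed, so this count cannot be read as a trait of the members. Of 9 members with at least 2 transcripts that reached 5 FPKM, 4 (SETD5, KMT5A, CBX1 and CBX3) had transcripts on opposite sides, with 1 or more higher and 1 or more lower by at least 1.5-fold, beside 26.1% of the 2088 genes in the table that could show this. All 250 member transcripts matched a GENCODE 29 name, from which lengths are given, and that release is on a later build than the hg19 of the files. StringTie assigns reads that several transcripts share by estimation, so these values are less certain than the gene sums.

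SETD5, whose gene level was nearly equal, showed the widest exchange. SETD5-204 was at 15.0 FPKM in static cells and listed at 0 in FSS cells, whereas SETD5-203 was at 0.163 and 8.20 FPKM and SETD5-205 at 1.24 and 6.83 FPKM. SETD5-203 and SETD5-204 have coding sequences of the same length, 4326 bases, and that of SETD5-205 is 4383 bases. In KMT5A, likewise equal at the gene level, KMT5A-201 (coding length 966 bases) was at 10.3 and 2.77 FPKM and KMT5A-202 (1056 bases) at 3.70 and 11.9 FPKM, so that the longer form went from 26.4% to 81.2% of the gene. In CBX1 the main transcript CBX1-201 was at 58.6 and 34.2 FPKM and CBX1-202 at 2.97 and 6.31 FPKM, and both have a coding length of 555 bases. In CBX3 the transcripts past 1.5-fold were minor, CBX3-201 at 3.95 and 7.15 FPKM and CBX3-203 at 8.34 and 5.07 FPKM, beside CBX3-202 at 61.2 and 51.5 FPKM.

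Some of the gene differences described above lay mainly in 1 transcript, while others were shared by several. In CBX5, for instance, CBX5-201 was at 18.5 and 7.07 FPKM and CBX5-204 at 2.77 and 0.544 FPKM. KDM1A-201, of coding length 2556 bases, was at 80.3 and 33.5 FPKM, while KDM1A-202, of 2628 bases, was at 18.7 and 18.0 FPKM, so the longer form went from 18.6% to 33.3% of the gene. KDM6B was carried by KDM6B-201, at 6.10 and 21.9 FPKM, with KDM6B-202 at 1.22 and 1.47 FPKM. KDM2A was carried by KDM2A-212, of coding length 2169 bases, at 7.96 and 19.3 FPKM, whereas KDM2A-210, of 3486 bases, was at 1.42 and 2.54 FPKM. SIRT6 was spread over several forms. SIRT6-202, of coding length 1065 bases, was at 3.26 and 7.62 FPKM, and SIRT6-214 (561 bases) and SIRT6-201 (984 bases), both under 0.1 FPKM in static cells, were at 4.37 and 2.98 FPKM in FSS cells. By the highest transcript alone SIRT6 had a log2 ratio of 1.02, and that of SIRT1 turned to -0.42. Forms with little or no signal in static cells also appeared in genes within 1.5-fold, with SIRT1-204 at 0.00459 and 4.50 FPKM, EED-207 listed at 0 and at 4.51 FPKM, KDM6A-203 listed at 0 and at 3.66 FPKM, and KDM3A-203 listed at 0 and at 2.81 FPKM. Other forms went the opposite way. Besides SETD5-204, KDM6A-202 was at 1.31 and 0.0750 FPKM, and HDAC7-209, in a gene lower as deposited, at 3.05 and 0.0491 FPKM.

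**Figure D4:**
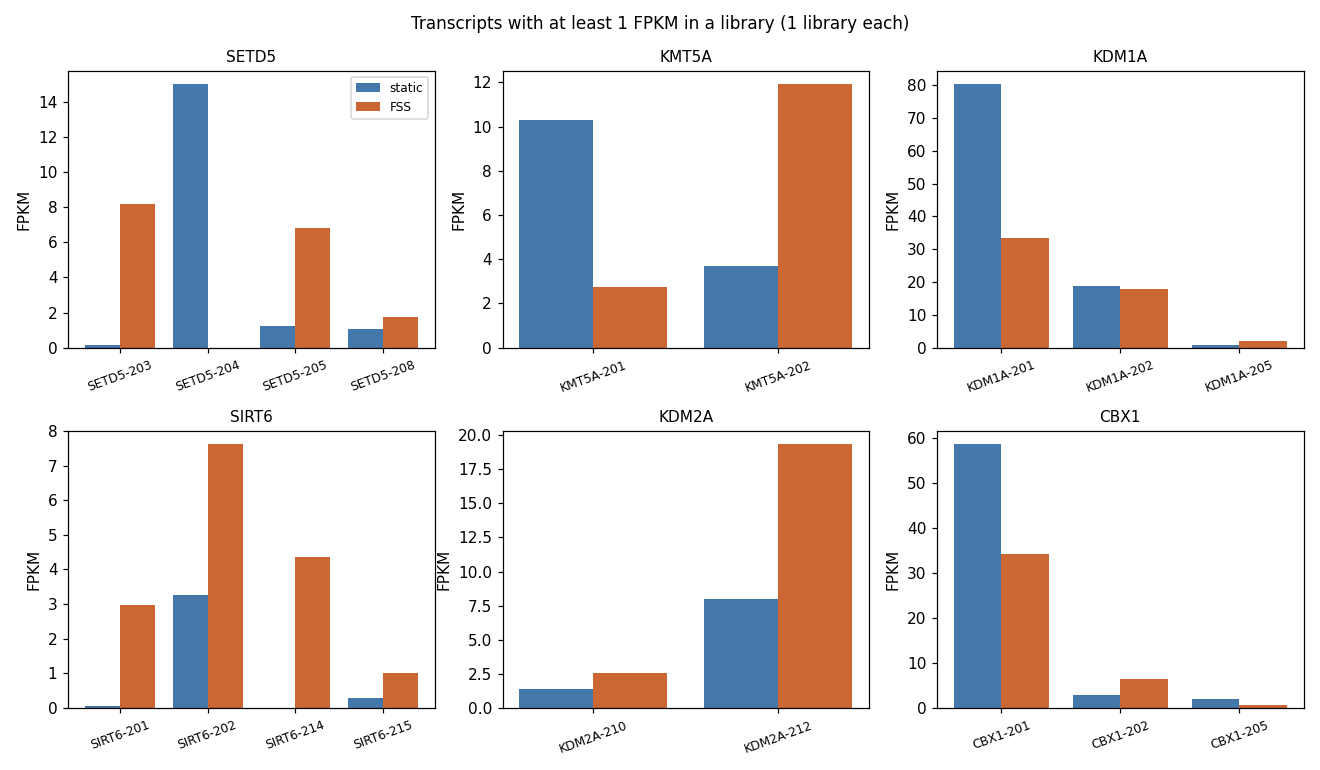
FPKM (y axis) in the static and FSS libraries of each transcript with at least 1 FPKM in a library, for SETD5, KMT5A, KDM1A, SIRT6, KDM2A and CBX1, with 1 library per bar and no error. SETD5-204 (15.0 FPKM in static cells, listed at 0 in FSS cells) stands beside SETD5-203 and SETD5-205, which are taller in FSS, as is KMT5A-202 beside KMT5A-201.

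Some members share bases with other genes. In GENCODE 29, 29 of 75 members had exons that overlap a gene on the opposite strand and 14 a gene on the same strand. Whether the library kept strand is not given in the sources used here, so reads in the overlaps of SIRT3 with PSMD13, SIRT2 with NFKBIB, SETD6 with CNOT1, HDAC7 with SLC48A1 and KDM5A with CCDC77, or on the same strand of KAT14 with PET117, SIRT7 with MAFG and BMI1 with the joint transcript COMMD3-BMI1, cannot be told apart with certainty.

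A list of other chromatin genes, partners and further enzymes of the same pathways, was read beside the members. Of 94 measured, 9 were higher and 25 lower. Centring made these counts 17 and 14 and turned the median from -0.14 to 0.09. As deposited the shares of 9.57% and 26.6% were again near those of all genes. PHF1 and MTF2, Polycomb-like partners of PRC2, measured 2.01 FPKM (PHF1) and 4.41 FPKM (MTF2) in static cells, against 8.25 and 10.5 FPKM under FSS. Other PRC2 partners did not share this direction. JARID2 was at 6.86 and 2.82 FPKM (-1.04), and AEBP2 (0.13) and PHF19 (-0.11) were within 1.5-fold. JMJD6, a hydroxylase of the JmjC family, was at 16.8 and 40.9 FPKM, and PAXIP1, a partner of the KMT2C and KMT2D complexes, at 1.26 and 4.29 FPKM. In the other direction SUV39H1, which writes the lysine 9 mark that HP1 proteins read, measured 25.7 and 6.28 FPKM (log2 ratio -1.88). RBBP4, a histone chaperone shared by PRC2 and deacetylase complexes, was at 56.6 and 20.6 FPKM (-1.41). BRD3, a reader of acetylated histones, TBL1XR1, of the HDAC3 complex, ING4, of a KAT7 complex, and MEN1, a partner of KMT2A, had log2 ratios of -1.45, -1.26, -1.23 and -1.17. SUV39H1, CBX5, CBX1 and KMT5C were thus lower in FSS as deposited, as were 29.5% of all genes. After centring CBX1 (-0.38) was inside 1.5-fold and CBX3 changed direction. SETDB1 (-0.41), SUV39H2 (-0.50) and TRIM28 (0.28), of the same list, and KMT5B (-0.11) were within 1.5-fold as deposited. These genes were put side by side after their values were seen.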

How the data were processed

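RNA from HepG2 cells under FSS and in static culture was sequenced as 1 library per group. Values were deposited as FPKM of each transcript. Tools in the submitters' processing notes are StringTie, STAR 2.5.2b, HISAT2 2.0.5 and cutadapt, and the build is hg19, and by the study's methods FPKM came from StringTie and Ballgown with a stated minimum of 0.5, below which many single values of the table lie. There were 0 further value columns. FPKM was summed by symbol, and genes with at least 0.5 FPKM in a library were kept. The pseudocount was 1 and the call 1.5-fold. Depth is unknown. In genes with 1 transcript the commonest low product of FPKM and length (kb) was 0.0832 in FSS and 0.0797 in static cells, but 14.9% and 16.9% of low values were whole multiples of it (within 0.03), so reads were not recovered. Members, classes, motifs and lists were chosen with earlier results of these data known. Of the members, 1 is counted in totals but not reported here. The others are named, with both FPKM values for those past 1.5-fold as deposited or centred and the 3 most abundant of each class, and genes of the other chromatin list from 2-fold (at most 6 each way). Further members, further genes of that list and the transcripts of members not on opposite sides were named after their values were seen. Alternatives were pseudocounts of 0.1, 5 and none, centring, rescaling, the highest transcript, no filter or one at 5 FPKM, 2-fold, 1 FPKM for transcripts, and GC correction in 20 bins (GENCODE 29). GC correction subtracted the median log2 ratio of each bin, so it also centres the values. The steps were tested on simulated data. Scripts ran under Python 3.11.15 with pandas 2.3.3 and numpy 2.4.6, and plots were drawn with matplotlib 3.10.9.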

Additional observations from a re-analysis of the deposited data

How the results depend on the processing

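With 1 library per group no replicate could be left out. No paired analysis was possible because the groups share fewer than 2 replicate numbers and the results come from no test. The 6 higher members stayed higher in the centred, rescaled, GC-corrected and unfiltered values, with pseudocount 0.1, without a pseudocount and with a filter at 5 FPKM. EZH2 and SETD2 were inside 1.5-fold with pseudocount 5, and EZH2 by the highest transcript. The count of higher members was 3 at 2-fold (4.31% of all genes) and 12 after GC correction (18.3%). The count of lower members, 24 as deposited, was 6 with pseudocount 5 (8% of members and 14.3% of all genes), 14 after centring (18.7% and 17.9%), 14 with a filter at 5 FPKM (24.6% and 29.4%), 9 at 2-fold (12% and 11.4%) and 12 after GC correction (16% and 16.5%). The share of lower members was thus above that of all genes as deposited and below it with pseudocount 5 and the filter at 5 FPKM. The median log2 ratio of members was -0.19 with pseudocount 5, -0.11 after centring, -0.23 with a filter at 5 FPKM (57 members left) and -0.034 after GC correction. That filter left 3 sirtuins, whose median turned to 0.33 because the low members were left out. With transcripts from 1 FPKM, 14 of 48 members were on opposite sides, beside 27.3% of 5950 genes. The ratio without a pseudocount was added after seeing the data and leaves out SIRT4, which was listed at 0 in FSS cells. Depth limits the members at low levels most, and its size is unknown.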
